A study of Homo sapiens with 12 samples.

Results

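The subject is a group of 9 human genes that read out, restrain or carry signalling by bone morphogenetic proteins (BMPs) and transforming growth factor beta (TGF-beta). They are the inhibitor of DNA binding genes ID1, ID2, ID3 and ID4, the inhibitory SMAD genes SMAD6 and SMAD7, the receptor-regulated SMAD3, the shared partner SMAD4, and the corepressor gene SKIL. They were chosen by name, as the rows of the deposited gene count table whose Ensembl identifiers carry these symbols, and all 9 had a row among the 70116 of the table. Of the 16197 genes with enough counts to be tested, 7 were members; ID3 and ID4 were not.

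The study asked what the citrate-handling genes SLC25A1, ACLY and ACO1 do in pancreatic cancer, with ferroptosis under nutrient stress named in its title. RNA was taken from MiaPaCa-2, an established line of human pancreatic cancer cells, in 4 groups of 3 libraries: siControl, siSLC25A1, siACLY and siACO1, each named for the small interfering RNA (siRNA) that the cells received. SLC25A1 encodes the mitochondrial citrate carrier, ACLY an enzyme that makes acetyl-CoA from citrate in the cytosol, and ACO1 the cytosolic aconitase, which also acts as an iron-regulated RNA-binding protein. All groups were transfected and differ, per the labels, in the siRNA alone; the siRNA sequences, their number per target, the time after transfection, the medium at harvest and whether the 3 replicates were separate cultures are not given in the sources used here, so the p-values measure the spread between these libraries, which may be technical.

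BMP and TGF-beta ligands bring together pairs of serine/threonine kinase receptors, which phosphorylate receptor-regulated SMAD proteins: SMAD1, SMAD5 and SMAD9 on the BMP side, SMAD2 and SMAD3 on the TGF-beta side. These join SMAD4, enter the nucleus and change transcription. ID1, ID2 and ID3 are classical direct targets of BMP signalling, and ID proteins bind E proteins such as TCF3 and TCF12 and keep them from DNA. SMAD6 and SMAD7 are induced by the pathway and block it at the receptor and at the SMAD complex, and SKIL (also called SnoN) is a corepressor that binds SMAD complexes and is itself a TGF-beta target. SMAD4 is one of the genes most often lost in pancreatic cancer.

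The promoters of the members with the largest called changes against siControl are shown because several of them are textbook SMAD targets. RefSeq promoter windows on GRCh38.p14 (300 bases, with 250 before the start of the transcript) were found for all 9 members, 15 windows in all, and 6 motifs were searched on both strands in these and in all 35116 windows of that table. The 250 bases before the start are given for SMAD6 (chr15:66701986-66702235), SKIL (chr3:170357465-170357714), ID1 (chr20:31605039-31605288) and ID2 (chr2:8681806-8682055), all on the plus strand and 5′ to 3′, with capitals marking motif matches.
SMAD6: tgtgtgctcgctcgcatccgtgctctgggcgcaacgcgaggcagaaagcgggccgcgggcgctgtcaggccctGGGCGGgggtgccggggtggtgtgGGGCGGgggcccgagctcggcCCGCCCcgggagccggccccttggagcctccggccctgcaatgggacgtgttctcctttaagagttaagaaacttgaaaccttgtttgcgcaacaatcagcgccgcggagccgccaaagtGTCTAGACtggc
SKIL: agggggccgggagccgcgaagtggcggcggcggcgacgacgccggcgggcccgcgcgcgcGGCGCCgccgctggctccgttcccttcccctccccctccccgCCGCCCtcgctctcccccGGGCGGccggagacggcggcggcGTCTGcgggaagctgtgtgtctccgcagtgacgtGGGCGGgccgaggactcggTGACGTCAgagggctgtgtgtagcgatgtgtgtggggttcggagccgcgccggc
ID1: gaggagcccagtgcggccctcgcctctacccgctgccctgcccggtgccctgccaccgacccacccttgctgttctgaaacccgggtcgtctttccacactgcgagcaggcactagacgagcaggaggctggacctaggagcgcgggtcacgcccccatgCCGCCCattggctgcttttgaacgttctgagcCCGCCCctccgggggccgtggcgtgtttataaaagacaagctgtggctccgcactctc
ID2: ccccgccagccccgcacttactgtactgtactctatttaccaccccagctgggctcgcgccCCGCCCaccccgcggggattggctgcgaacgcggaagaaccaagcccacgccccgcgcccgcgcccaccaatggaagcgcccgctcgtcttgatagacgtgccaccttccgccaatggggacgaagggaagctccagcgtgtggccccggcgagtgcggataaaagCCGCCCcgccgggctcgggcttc
The SMAD6 window held the palindrome GTCTAGAC, the sequence in which SMAD3 and SMAD4 binding was defined, at positions -12 to -5 from the start. No other member had it in its windows, and 71 of the 35116 windows (0.202%) did. The shorter SMAD core CAGAC lay in the SKIL window at -107 to -103 on the minus strand, but 45.3% of all windows hold that motif. SKIL also held the cyclic AMP response element TGACGTCA at -54 to -47, present in 1.85% of windows, and the GC-rich BMP element GGCGCC at -190 to -185, present in 19.2%. The GC box CCGCCC occurred in each of the 4 windows shown and in 45% of all windows, and the E-box CACGTG, found in 7.26% of all windows, was in none of those 4. The ID1 and ID2 windows held only GC boxes among the 6 motifs, at -90 and -58 in ID1 and at -189 and -23 in ID2. A match is a description of the letters, not evidence of binding. Sequence outside the windows was not searched, so the lack of a motif holds for the window only.

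Library totals ran from 24159424 to 43792811 counts, so 3 counts in a library, taken as the detection floor, correspond to between 0.0674 and 0.124 CPM, the usual depth-scaled unit of expression. Levels below are CPM after TMM scaling, which sets the libraries on a common scale from the genes that differ least. Each siRNA lowered its target: SLC25A1 to 8.78% of siControl, ACLY to 7.25% and ACO1 to 3.75% in the fit. siACO1 replicate 3 stood apart from its replicates, with a chi-square per degree of freedom of 11.4 and 12.1 against them. All other replicate pairs gave 2.28 to 5.57. Member values in siACO1 against siControl are therefore also given without it where sign or call differed, and for ID2, SMAD6 and SKIL. Other siACO1 values may also depend on it in size. This library also enters the estimate of spread shared by all groups. Without it, 4131 genes had an adjusted p under 0.05 in siSLC25A1 against siControl, in place of 3173. That number ran from 2319 to 4131 when single libraries were left out. The cells expressed KRT8, KRT18, KRT19 and VIM in every library, while EPCAM and CDH1 reached at most 2 counts. Among 4 fibroblast markers only COL1A2 passed the filter on low counts, and the summed level of the 4 was 1546 to 1592 CPM in siACO1 against 784 to 895 CPM in the other groups, with LUM at 0 counts and DCN and COL1A1 at no more than 2 and 9 counts. The 5 epithelial markers summed to 2066 to 2181 CPM in siACO1 against 3125 to 3922 CPM elsewhere; the part of these shifts in the siACO1 values below was not tested. Immune, endothelial, acinar and endocrine markers were at or near 0.

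Without stimulation by an added ligand named in the labels, the members differed widely in level. Per kilobase of exon in siControl, ID1 stood at 187 ± 3.29 CPM per kb (SD, n = 3), above ID2 at 16.9 ± 0.697, SMAD3 at 9.20 ± 0.461, SMAD4 at 4.61 ± 0.0291, SMAD6 at 1.31 ± 0.192, SKIL at 1.28 ± 0.0709 and SMAD7 at 0.227 ± 0.0256. SMAD6 and SKIL were within each other's spread, and every other neighbouring pair in that order was further apart than their SDs. ID3 had 0 or 1 count in a library and ID4 had 0 in all 12, so neither was detectable at this depth, the floor being at most 0.124 CPM. MiaPaCa-2 thus carried ID1 and ID2 transcripts and no measurable ID3 or ID4. TCF3, an E protein that ID proteins bind, stood at 69.1 ± 3.00 CPM per kb on the same scale, and TCF12 at 8.04 ± 0.172.

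**Figure D1:**
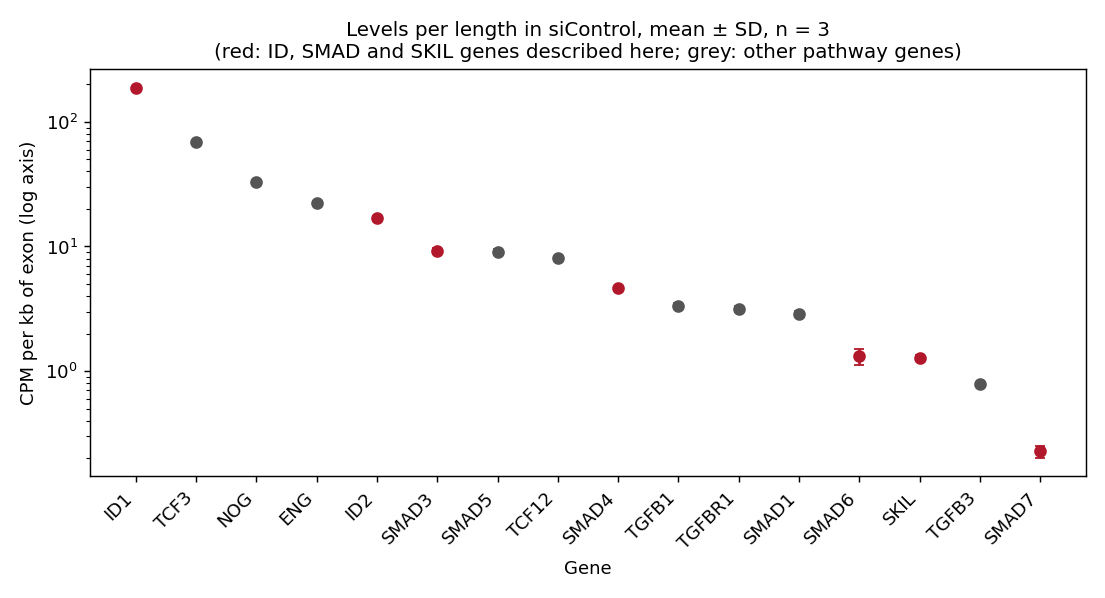
Levels in siControl in CPM per kilobase of exon on a log axis, for the 7 tested members (red) and 9 other pathway genes (grey), as mean ± SD of 3 libraries. ID1 lies at 187 CPM per kb and SMAD7 at 0.227.

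Against siControl, 3 of the 7 tested members were lower and none was higher in siSLC25A1, 6 were lower and none was higher in siACLY, and in siACO1 4 were lower and 1 was higher. The shares of all 16197 genes called at an adjusted p under 0.05 were 19.6%, 36.7% and 37.1% in the 3 comparisons. In siSLC25A1 and siACLY no member was higher in edgeR at an unadjusted p under 0.05 either. ID1 and SMAD6 were lower in all 3 knockdowns, ID2 was lower in siSLC25A1 and siACLY and higher in siACO1, and SKIL was lower in siACLY and siACO1. The knockdown libraries lay outside the range of the siControl libraries for 6, 6 and 4 of the 7 members; the same held for 37.1%, 50.5% and 46.3% of all tested genes. The median log2 fold change of the 7 was -0.11, -0.16 and -0.16, where the median of all tested genes was -0.0045, 0.0077 and 0.0063. The 3 comparisons share the same siControl libraries. Of the genes called, 50.1% were higher in siACLY and 47.9% in siACO1; with library totals in place of TMM these shares became 61.0% and 59.5%.

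**Figure D2:**
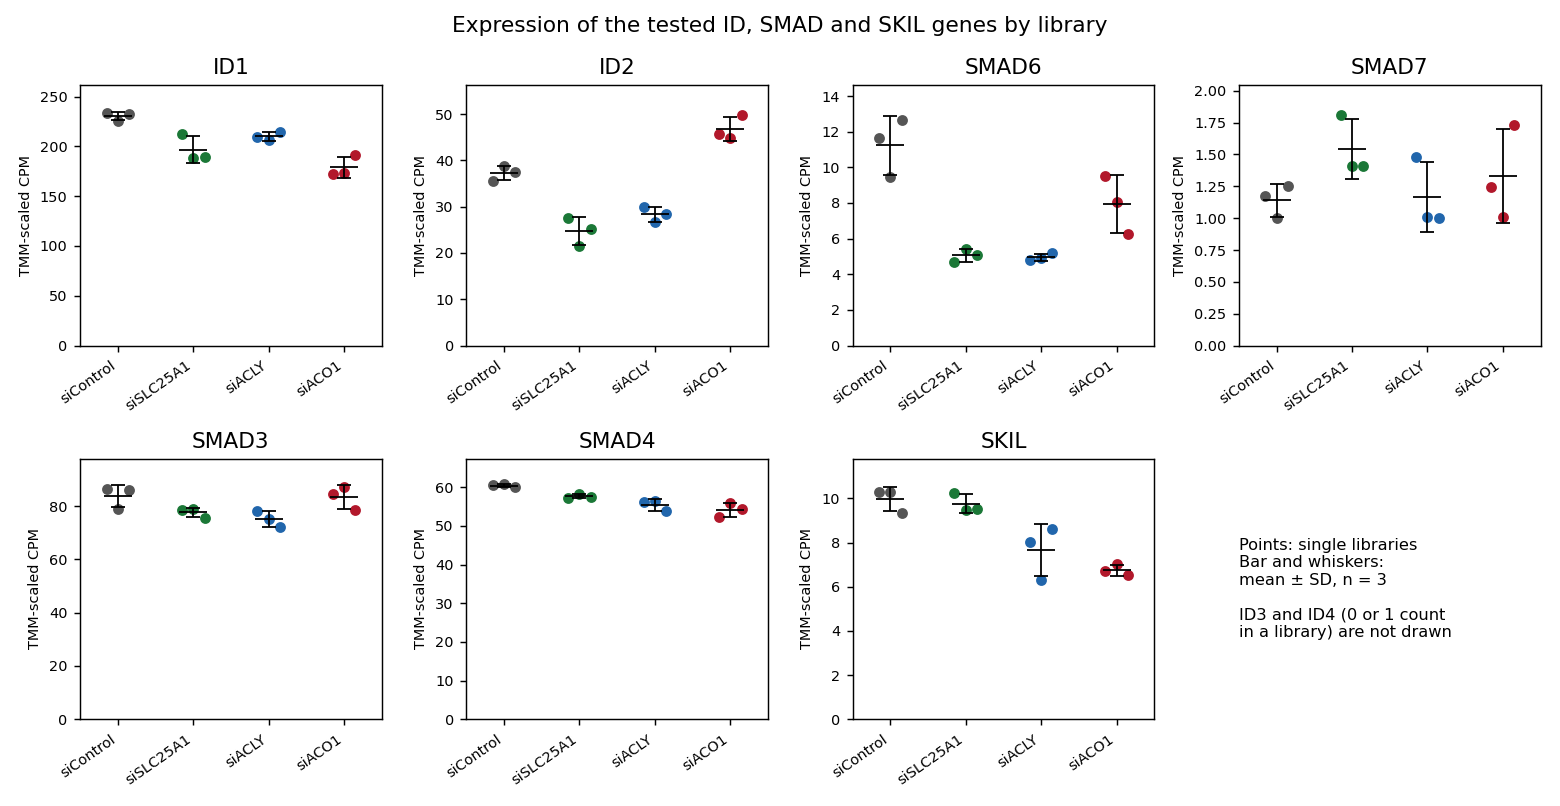
TMM-scaled CPM of the 7 tested members in each of the 12 libraries (points), with the mean and SD of each group of 3; each panel has its own axis from 0. SMAD6 lies between 4.71 and 5.43 CPM in the siSLC25A1 and siACLY libraries and between 9.43 and 12.7 CPM in siControl, and ID2 is highest in siACO1.

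ID1 (chr20:31605283-31606515 on the plus strand of GRCh38, GENCODE release 29, protein coding) was the most abundant member. Its level was 234, 226 and 232 CPM in siControl, 213, 188 and 189.5 CPM in siSLC25A1, 210, 206 and 215 CPM in siACLY, and 172, 173 and 191 CPM in siACO1. Every knockdown library was below every siControl library. The fall was to 77.7% of siControl in siACO1 (95% interval 72.7% to 83.0%, log2 fold change -0.36, SE 0.047, adjusted p = 3.32e-07). When single libraries were left out, that log2 fold change ran from -0.42 to -0.34. In siSLC25A1 the fall was to 85.4% (79.9% to 91.3%, log2 fold change -0.23, SE 0.047, adjusted p = 0.000635). In siACLY the level was 91.2% of siControl (85.3% to 97.4%; -0.13, SE 0.047, adjusted p = 0.0245). That smallest fall lost its call with library totals (adjusted p = 0.107) and without siControl replicate 1 (0.0812), siControl replicate 3 (0.0614), siACLY replicate 1 (0.0558) or siACLY replicate 2 (0.0792), with a log2 fold change of -0.09 to -0.14 in these fits. In a mixture, fewer cells that express a gene and less RNA of it per cell cannot be told apart in such bulk libraries.

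ID2 (chr2:8678845-8684453, plus strand, protein coding) moved in opposite directions. The siControl libraries held 35.6, 38.7 and 37.6 CPM. siSLC25A1 held 27.6, 21.6 and 25.2 CPM, siACLY 30.0, 26.8 and 28.4 CPM, and siACO1 45.7, 44.9 and 49.8 CPM. The siSLC25A1 and siACLY libraries were all below the siControl range and the siACO1 libraries all above it. ID2 fell to 66.6% of siControl in siSLC25A1 (95% interval 60.2% to 73.8%; log2 fold change -0.59, SE 0.072, adjusted p = 5.23e-07) and to 76.4% in siACLY (69.2% to 84.4%; -0.39, SE 0.070, adjusted p = 5.67e-05). It rose to 126% in siACO1 (114% to 138%; 0.33, SE 0.068, adjusted p = 0.000288), and the rise was 0.28 (adjusted p = 0.00125) without siACO1 replicate 3. Compared directly, ID2 in siACO1 exceeded siSLC25A1 by 0.91 and siACLY by 0.72 on the log2 scale, since siSLC25A1 minus siACO1 was -0.91 (SE 0.072, adjusted p = 1.80e-11) and siACLY minus siACO1 was -0.72 (SE 0.069, adjusted p = 1.42e-09). ID1 and ID2 thus differed in siACO1, where ID1 fell and ID2 rose. An antisense gene, ID2-AS1, overlaps 1.72% of the exon bases of ID2.

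SMAD6 (chr15:66702228-66782848, plus strand, protein coding), the inhibitory SMAD that acts mainly on BMP receptors, had the largest fold change of the members. Its level was 11.6, 9.43 and 12.7 CPM in siControl. It was 4.71, 5.43 and 5.06 CPM in siSLC25A1 and 4.81, 4.89 and 5.17 CPM in siACLY, less than any siControl library. The siACO1 libraries held 9.54, 8.03 and 6.26 CPM, of which replicate 1 overlapped the siControl range and replicate 3 was the lowest. SMAD6 fell to 45.2% of siControl in siSLC25A1 (95% interval 37.3% to 54.6%; log2 fold change -1.15, SE 0.13, adjusted p = 2.29e-07) and to 44.1% in siACLY (36.6% to 53.1%; -1.18, SE 0.13, adjusted p = 3.43e-08). Only 0.778% and 0.562% of all tested genes had a lower log2 fold change in these comparisons, and 1.48% and 2.78% had a larger absolute one. In siACO1 it fell to 70.4% (59.0% to 84.1%; -0.51, SE 0.12, adjusted p = 0.00181), with a log2 fold change of -0.36 (adjusted p = 0.0167) without siACO1 replicate 3. The fall was deeper in siSLC25A1 and in siACLY than in siACO1, with differences of -0.64 (SE 0.14, adjusted p = 0.000458) and -0.67 (SE 0.14, adjusted p = 0.000193). Between siSLC25A1 and siACLY the difference was 0.033 (95% interval -0.27 to 0.33, adjusted p = 0.889). The palindrome-bearing window shown above belongs to this gene; no readout of binding is part of these data.

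SMAD7 (chr18:48919853-48952052, minus strand, protein coding), the inhibitory SMAD of both branches, was scarce, with 26 to 66 counts in a library. It stood at 1.17, 0.999 and 1.25 CPM in siControl, 1.81, 1.41 and 1.41 CPM in siSLC25A1, 1.48, 1.01 and 1.00 CPM in siACLY and 1.25, 1.01 and 1.73 CPM in siACO1. The siSLC25A1 libraries were above the siControl range, but the log2 fold change of 0.45 (95% interval -0.08 to 0.97, adjusted p = 0.238) did not pass the test. In siACLY it was 0.074 (-0.45 to 0.60, adjusted p = 0.852) and in siACO1 0.23 (-0.30 to 0.76, adjusted p = 0.521). These intervals include changes of 1.5-fold, so the depth at this gene does not show whether it differed. The sign of SMAD7 in siACLY and siACO1 depended on single libraries. Without siACO1 replicate 3 its log2 fold change in siACO1 was -0.023 (adjusted p = 0.961). SMAD6 and SMAD7, often described together as feedback inhibitors, therefore gave different readouts in siSLC25A1 and siACLY: a called fall of SMAD6 and no call for SMAD7.

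SMAD3 (chr15:67063763-67195195, plus strand, protein coding), which carries the TGF-beta signal, held 86.4, 79.0 and 86.2 CPM in siControl and 78.6, 78.7 and 75.6 CPM in siSLC25A1. It held 78.0, 75.2 and 72.1 CPM in siACLY and 84.6, 87.1 and 78.6 CPM in siACO1. The siSLC25A1 and siACLY libraries lay below the siControl range by small margins, and the siACO1 libraries overlapped it. Only the siACLY value was called, at 89.7% of siControl (95% interval 83.6% to 96.2%; log2 fold change -0.16, SE 0.050, adjusted p = 0.0131). The call was lost with library totals (adjusted p = 0.0868) and without siControl replicate 1 (0.0701), siControl replicate 3 (0.0558) or siACLY replicate 3 (0.0682). In siSLC25A1 the log2 fold change was -0.11 (adjusted p = 0.123) and in siACO1 -0.0080 (95% interval -0.11 to 0.093, adjusted p = 0.923). Without siACO1 replicate 3 the siACO1 value was 0.032 (adjusted p = 0.643).

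SMAD4 (chr18:51028394-51085045, plus strand, protein coding), the partner shared by both branches, was transcribed in every library. Its level was 60.5, 60.8 and 60.04 CPM in siControl, 57.2, 58.2 and 57.5 CPM in siSLC25A1, 56.3, 56.4 and 53.7 CPM in siACLY and 52.2, 55.8 and 54.4 CPM in siACO1. All 9 knockdown libraries were below the 3 siControl libraries, which lay within 1 CPM of each other. SMAD4 was called lower in siACO1, at 89.6% of siControl (95% interval 83.8% to 95.8%; log2 fold change -0.16, SE 0.047, adjusted p = 0.00869), and in siACLY, at 91.8% (85.9% to 98.2%; -0.12, SE 0.047, adjusted p = 0.0402). The siACO1 call was lost with library totals (adjusted p = 0.0722). The siACLY call was lost in 8 of 19 alternative fits, among them those without siControl replicate 1 (adjusted p = 0.0867), siControl replicate 2 (0.0930), siControl replicate 3 (0.0648), siACLY replicate 1 (0.0560) or siACLY replicate 3 (0.136). In siSLC25A1 the level was 95.3% of siControl (89.1% to 102%, adjusted p = 0.340). Counting rules are not known here, and 7.37% of the exon bases of SMAD4 overlap another gene on the same strand.

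SKIL (chr3:170357678-170396835, plus strand, protein coding), the corepressor, was lower in siACLY and siACO1 and was not called in siSLC25A1. It held 10.3, 10.3 and 9.33 CPM in siControl and 10.3, 9.50 and 9.53 CPM in siSLC25A1, and these 2 groups overlapped. It held 8.05, 6.32 and 8.60 CPM in siACLY and 6.72, 7.02 and 6.52 CPM in siACO1, all below siControl. SKIL fell to 67.7% of siControl in siACO1 (95% interval 58.1% to 78.7%; log2 fold change -0.56, SE 0.11, adjusted p = 0.000102) and to 77.0% in siACLY (66.4% to 89.3%; -0.38, SE 0.10, adjusted p = 0.00505). In siSLC25A1 the log2 fold change was -0.031 (95% interval -0.24 to 0.18, adjusted p = 0.877). The fall in siACO1 was -0.54 without siACO1 replicate 3 (adjusted p = 0.000339).

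**Figure D3:**
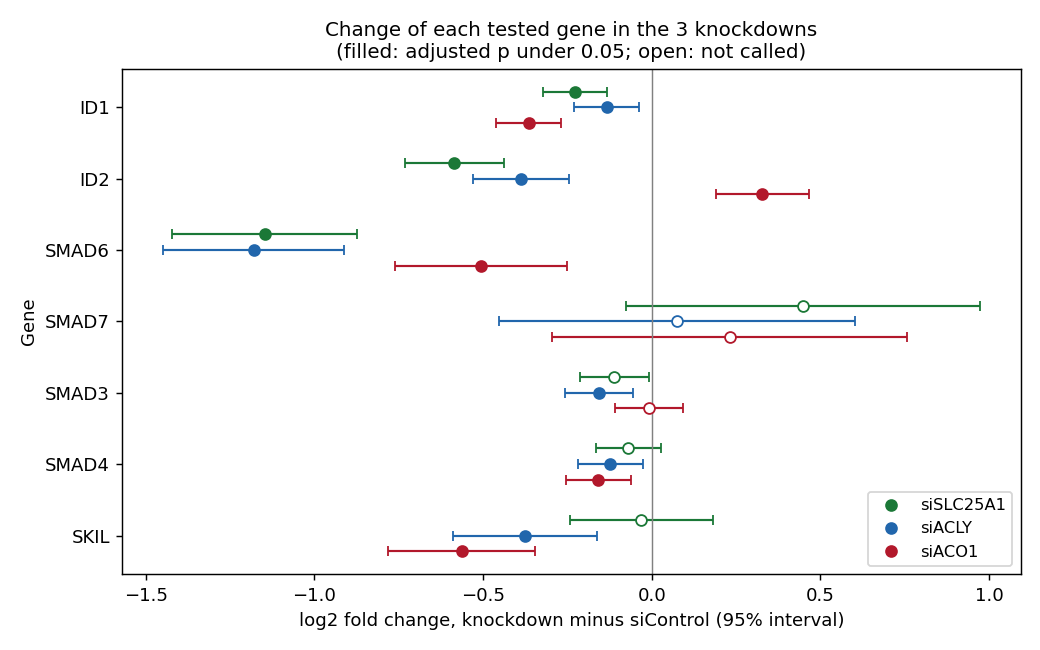
Log2 fold change of each tested member in siSLC25A1 (green), siACLY (blue) and siACO1 (red) against siControl, with 95% intervals from the fit; filled points have an adjusted p under 0.05. SMAD6 lies near -1.15 in siSLC25A1 and siACLY, ID2 at 0.33 in siACO1 and below 0 in the others, and the SMAD7 intervals are the widest.

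Between the knockdowns, 2 of the 7 members differed between siSLC25A1 and siACLY, where 33.8% of all tested genes were called; 4 differed between siSLC25A1 and siACO1 and 4 between siACLY and siACO1, where 42.1% and 42.1% were called. In those comparisons 2, 4 and 4 of the 7 members had groups that did not overlap, as did 46.5%, 48.0% and 49.0% of all tested genes. The 2 that differed between siSLC25A1 and siACLY were SKIL, higher in siSLC25A1 by 0.35 (SE 0.11, adjusted p = 0.0127), and ID2, lower in siSLC25A1 with -0.20 (SE 0.074, adjusted p = 0.0389). Both rested on few libraries: SKIL was 0.31 (adjusted p = 0.0576) without siSLC25A1 replicate 1 and 0.24 (0.0954) without siACLY replicate 2. ID2 was -0.10 (0.336) without siSLC25A1 replicate 2, -0.14 (0.217) without siACLY replicate 1, and also lost its call without siControl replicate 3 (0.0573), siSLC25A1 replicate 3 (0.0784), siACLY replicate 3 (0.0823) or siACO1 replicate 1 (0.0501) and in DESeq2 (0.0593). ID1 was not called there, at -0.094 (adjusted p = 0.127), but was called lower in siSLC25A1 with library totals, at -0.13 (0.0185), and without siSLC25A1 replicate 1, at -0.15 (0.0122). With library totals 41.0% of the genes called between siSLC25A1 and siACLY were higher in siSLC25A1, against 51.8% with TMM.

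The difference between siSLC25A1 and siACO1 covered ID2 and SMAD6, given above, SKIL and ID1. SKIL was 145% of the siACO1 level in siSLC25A1 (95% interval 124% to 169%; log2 difference 0.53, SE 0.11, adjusted p = 0.000227). ID1 was higher in siSLC25A1 by 0.14 (SE 0.047, adjusted p = 0.0197), with overlapping libraries; the call was lost with library totals (adjusted p = 0.0880), in the fit of these 2 groups alone (0.0657), and without siSLC25A1 replicate 1 (0.196, log2 difference 0.078), siACO1 replicate 1 (0.0996) or siACO1 replicate 2 (0.0899). SMAD3 was not called, at -0.10 (adjusted p = 0.102), and was called without siACO1 replicate 3, at -0.14 (adjusted p = 0.0166). Between siACLY and siACO1, ID1 was higher in siACLY by 0.23 (SE 0.047, adjusted p = 0.000188), and SMAD3 was lower with -0.15 (SE 0.050, adjusted p = 0.0165), a call lost without siACLY replicate 3 (0.0878) or siACO1 replicate 2 (0.0894). SKIL did not pass there, at 0.19 (95% interval -0.039 to 0.41, adjusted p = 0.181), and did without siACLY replicate 2, at 0.29 (adjusted p = 0.0390). SMAD4 and SMAD7 differed in none of the 3 comparisons between knockdowns under the test as described.

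The genes whose levels followed each member most closely over the 12 libraries were found by Pearson's r of log2 CPM among the 9906 other tested genes that averaged 5 CPM or more. All 12 points share the 4 groups and the same scaling, so these values describe likeness only. Over 14 alternatives (2 other scalings and each library left out) the 18 values below lay between 0.824 and 0.994, so the order of genes with close values is not settled by these libraries. ID1 was most like INTS13 (r = 0.959), RBM42 (0.956) and MAP3K13 (0.955). ID2 was most like SLC29A2 (0.977), HDGF (0.974) and CCDC106 (0.968). SMAD6 was most like PLXNB2 (0.974), ARHGEF17 (0.948) and MFAP3 (0.943). For SMAD3 the closest were ADAM8 (0.909), CD37 (0.905) and TCIRG1 (0.872), for SMAD4 ZNF718 (0.960), LINC00857 (0.954) and RAB28 (0.938), and for SKIL GEMIN5 (0.940), SNHG7 (0.935) and THOP1 (0.934). SNHG7 counts are uncertain, since 31.4% of its exon bases overlap another gene. Among the members themselves, SMAD6 and SMAD3 had the highest r (0.812), followed by SMAD4 and SKIL (0.729); ID1 and ID2 had -0.17.

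The rest of the pathway was followed in 9 lists of 126 different genes, of which 79 were tested and 8 stood in more than 1 list. Of all 16197 tested genes, 10.3% were called higher and 9.27% lower in siSLC25A1. These shares were 18.4% and 18.3% in siACLY, and 17.8% and 19.3% in siACO1. The list counts below are to be read beside these shares, and no test over a list was run. Among 28 ligand genes 13 were tested. In siSLC25A1, 2 ligands rose and 2 fell (median log2 fold change -0.059). TGFB1, the main TGF-beta ligand, went from 10.9 ± 0.515 to 17.4 ± 0.958 CPM (log2 fold change 0.68, adjusted p = 2.69e-07), and TGFB3 from 3.86 ± 0.151 to 6.57 ± 0.462 CPM (0.77, adjusted p = 9.27e-05). In siACLY 1 fell and none rose (median -0.16): AMH, the anti-Mullerian hormone, went from 57.8 ± 2.59 to 40.9 ± 2.66 CPM (-0.49, adjusted p = 1.70e-07), and a second ligand was called lower without siACLY replicate 1 or siACO1 replicate 3. AMH was called lower in the other knockdowns too, by -0.26 in siSLC25A1 and by -0.52 in siACO1, and kept these calls in all 19 alternatives. In siACO1 3 rose and 6 fell (median -0.52), and 2 rose without replicate 3. BMP6 went from 2.21 ± 0.357 to 0.433 ± 0.0839 CPM (-2.35, adjusted p = 4.38e-08), TGFB3 to 2.11 ± 0.212 CPM (-0.87, adjusted p = 4.10e-05) and BMP8A to 2.15 ± 0.388 CPM from 4.03 ± 0.226 CPM (-0.91, adjusted p = 8.01e-05), while TGFB1 rose to 14.99 ± 0.469 CPM (0.46, adjusted p = 3.35e-05). BMP8A counts are uncertain, since 46% of its 31-base stretches also occur in other genes. TGFB3 thus rose in siSLC25A1 and fell in siACO1. BMP7, a BMP of kidney and bone development, stood at 40.9 ± 1.19 CPM in siControl and fell to 32.5 ± 0.526 CPM in siSLC25A1 (-0.33, adjusted p = 0.000215) and 26.5 ± 1.42 CPM in siACO1 (-0.62, adjusted p = 4.53e-09). BMP4 and INHBA had 0 counts in all libraries and BMP2 at most 2; these 3 were named after their values were seen.

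Of 17 receptor and coreceptor genes 11 were tested. In siSLC25A1 6 rose and 2 fell (median 0.16), in siACLY 2 rose and 2 fell (0.050), and in siACO1 1 rose and 3 fell (-0.077). The shares called were 72.7%, 36.4% and 36.4%, against 19.6%, 36.7% and 37.1% of all tested genes. TGFBR1, the TGF-beta type I receptor, stood at 21.7 ± 1.24 CPM in siControl. It rose to 27.2 ± 1.47 CPM in siSLC25A1 (log2 fold change 0.32, adjusted p = 0.000944) and fell to 16.5 ± 0.993 CPM in siACO1 (-0.39, adjusted p = 6.07e-05). In siACLY TGFBR1 was also called higher (0.20, adjusted p = 0.0250). That call was lost without siControl replicate 1 (0.158), siACLY replicate 1 (0.128) or siACLY replicate 2 (0.0712), and with no filter (0.0512). RGMA, a BMP coreceptor, was scarce, at 1.44 ± 0.135 CPM in siControl, and fell in siSLC25A1 to 0.523 ± 0.130 CPM (-1.45, adjusted p = 0.000513) and in siACLY to 0.639 ± 0.118 CPM (-1.15, adjusted p = 0.00132). In siACO1 RGMA was also called lower (-0.66, adjusted p = 0.0494). That call was lost in DESeq2 (0.0854) and without any single siControl or siACO1 replicate. ENG (endoglin, a coreceptor) rose in siACO1 from 87.9 ± 1.67 to 109.0 ± 5.22 CPM (0.31, adjusted p = 2.63e-06). In siSLC25A1 ENG was also called higher (0.16). That call was lost without siControl replicate 3 (adjusted p = 0.0732) or siSLC25A1 replicate 3 (0.106), and with no filter (0.0541). TGFBR2, the type II receptor that TGF-beta binds, had at most 1 count in a library and was not detectable at this depth; it was named after its values were seen. The receptor counts depended on single libraries: without siControl replicate 3, or without siSLC25A1 replicate 3, 3 receptors were called higher in siSLC25A1, and 1 lower without any of siControl replicates 1 and 3 and siSLC25A1 replicates 1, 2 and 3. In siACLY 1 was called higher without siControl replicate 1, siACLY replicate 1 or siACLY replicate 2, and 1 lower without any of the siControl replicates.

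Secreted antagonists and latency proteins gave 10 tested genes of 22. In siSLC25A1 2 rose and 2 fell, in siACLY 2 rose and 4 fell, and in siACO1 3 rose and 3 fell, with medians of 0.081, -0.13 and -0.0010. LTBP2, of the latent TGF-beta binding protein family, rose in siSLC25A1 from 34.4 ± 2.28 to 71.6 ± 1.16 CPM (log2 fold change 1.06, adjusted p = 2.96e-08). LTBP3, of the same family, fell there from 62.9 ± 1.09 to 44.99 ± 1.70 CPM (-0.48, adjusted p = 1.22e-08) and in siACLY (-0.28, adjusted p = 2.36e-05), and rose in siACO1 to 74.6 ± 1.93 CPM (0.25, adjusted p = 9.37e-05). NOG, the BMP antagonist noggin, fell in siACO1 from 62.7 ± 1.96 to 50.9 ± 2.50 CPM (-0.30, adjusted p = 6.38e-05) and rose in siSLC25A1 to 74.3 ± 5.23 CPM (0.24, adjusted p = 0.00139). NOG was also called lower in siACLY (-0.15, adjusted p = 0.0357), a call lost in 6 of 19 alternatives. In siACLY FSTL3, which binds activins, fell (-0.38, adjusted p = 0.000157), and so did NBL1, a BMP antagonist (-0.29, adjusted p = 8.24e-06). Without siControl replicate 2 or siSLC25A1 replicate 1 there was 1 lower call in siSLC25A1, and without siControl replicate 1 or siACLY replicate 2 there was 1 higher call in siACLY.

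The 4 other SMAD genes were all tested, and in siSLC25A1 edgeR and DESeq2 called 0 of them. There 1, SMAD2 of the TGF-beta side, had an unadjusted p under 0.05 (log2 fold change -0.11, adjusted p = 0.0914), and 1 was called lower without siACO1 replicate 3. SMAD5, a BMP-side SMAD, fell in siACLY from 82.2 ± 3.66 to 68.3 ± 2.21 CPM (log2 fold change -0.27, adjusted p = 4.77e-05). SMAD1, also on the BMP side, fell in siACO1 from 17.4 ± 0.960 to 14.004 ± 0.689 CPM (-0.31, adjusted p = 0.00489). The medians of the 4 were -0.011, -0.014 and -0.030.

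Intracellular inhibitors and corepressors other than the members had 15 tested genes of 16, with 3 higher and 5 lower in siSLC25A1, 2 higher and 7 lower in siACLY, and 2 higher and 5 lower in siACO1 (medians -0.053, -0.13 and -0.056). BAMBI, a decoy receptor and a feedback target, fell in siSLC25A1 from 5.31 ± 0.762 to 2.64 ± 0.476 CPM (log2 fold change -1.005, adjusted p = 4.55e-05). It was not called in siACLY (-0.17, adjusted p = 0.396) or siACO1 (-0.19, adjusted p = 0.354). PMEPA1, another feedback target that sequesters SMADs, fell in siACLY from 28.4 ± 0.852 to 13.3 ± 0.237 CPM (-1.10, adjusted p = 1.10e-13) and in siSLC25A1 to 21.9 ± 0.719 CPM (-0.37, adjusted p = 6.00e-05). SMURF2, a ubiquitin ligase for SMADs and receptors, rose in siSLC25A1 from 227 ± 12.0 to 310 ± 5.32 CPM (0.45, adjusted p = 2.76e-09) and fell in siACO1 to 187 ± 1.88 CPM (-0.28, adjusted p = 3.38e-06). TGIF1, a SMAD corepressor, rose in siSLC25A1 (0.45, adjusted p = 1.31e-07), siACLY (0.39, adjusted p = 6.37e-07) and siACO1 (0.19, adjusted p = 0.00362), while its relative TGIF2 fell in siACLY (-0.56, adjusted p = 3.18e-08). In siACO1 there was 1 higher call without siControl replicate 2 or siACO1 replicate 3. The 8 positive regulators were all tested, with 3 rising in siSLC25A1, 2 in siACLY and 2 in siACO1, and 1 falling in siACO1 (medians 0.11, 0.028 and 0.0045). ZFYVE9, the SARA protein that presents SMADs to the receptor, rose in siSLC25A1 (0.37, adjusted p = 1.14e-05) and siACO1 (0.32, adjusted p = 2.93e-05). The count of 3 in siSLC25A1 was 1 without siSLC25A1 replicate 3, and that in siACO1 was 1 without siACO1 replicate 1. The count of 2 in siACLY was 0 without siControl replicate 1 or 2, siSLC25A1 replicate 2 or siACLY replicate 1 or 3, and 1 without siControl replicate 3, siSLC25A1 replicate 3 or siACLY replicate 2.

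Among 15 TGF-beta target genes 12 were tested: 7 rose and 1 fell in siSLC25A1, 5 rose and 2 fell in siACLY, and 2 rose and 2 fell in siACO1, with medians of 0.33, 0.22 and -0.11. The shares called were 66.7%, 58.3% and 33.3%, against 19.6%, 36.7% and 37.1% of all tested genes. CDKN1A, the cell cycle inhibitor p21, rose from 1.27 ± 0.245 CPM to 3.91 ± 0.335 CPM in siSLC25A1 (log2 fold change 1.63, adjusted p = 1.46e-07) and to 3.60 ± 0.445 CPM in siACLY (1.52, adjusted p = 1.43e-07). TGFBI, a secreted matrix protein, rose in siACLY from 27.8 ± 2.56 to 39.9 ± 3.13 CPM (0.52, adjusted p = 4.87e-07) and fell in siACO1 to 17.5 ± 0.389 CPM (-0.67, adjusted p = 1.76e-08). PMEPA1, described above with the inhibitors, also stands in this list. It was 1 of the 2 falls in siACLY (-1.10, adjusted p = 1.10e-13) and the 1 fall in siSLC25A1. JUNB, an AP-1 subunit, rose in siACO1 from 12.5 ± 2.06 to 29.2 ± 2.12 CPM (1.22, adjusted p = 1.72e-11). The targets moved in both directions in siACO1, where JUNB and TGFB1 rose and TGFBI fell. In siACLY 3 were called higher without siControl replicate 3, and 1 lower without siControl replicate 1 or siACLY replicate 1.

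BMP target genes other than the ID genes had 8 tested of 14: 2 rose and 2 fell in siSLC25A1, 1 rose and 2 fell in siACLY, and in siACO1 4 fell and 0 rose, by edgeR and by DESeq2 (medians -0.039, -0.054 and -0.25). The shares called by edgeR were 50%, 37.5% and 50%, against 19.6%, 36.7% and 37.1% of all tested genes. The 4 in siACO1 were NOG, itself a BMP antagonist, GATA2, MSX1 and RUNX2. MSX1, a homeobox factor, fell in siACO1 from 10.9 ± 0.353 to 8.19 ± 1.23 CPM (log2 fold change -0.41, adjusted p = 0.00147), and RUNX2, a factor of bone formation, from 5.69 ± 0.829 to 3.85 ± 0.618 CPM (-0.54, adjusted p = 0.00255). GATA2, a zinc finger factor, fell in siACLY from 77.9 ± 4.23 to 52.3 ± 1.73 CPM (-0.57, adjusted p = 9.46e-10) and in siSLC25A1 to 62.9 ± 4.06 CPM (-0.31, adjusted p = 6.90e-05). The 1 rise in siACLY was MSX2, from a mean of 1.85 to 3.20 CPM (0.78, adjusted p = 0.00184), called in all 19 alternatives. The 2 rises in siSLC25A1 were NOG, given above, and RUNX2. RUNX2 went there to a mean of 7.38 CPM (0.38, adjusted p = 0.0383), a call lost in 4 of 19 alternatives. ID2 therefore rose in siACO1 beside 4 called falls and no called rise in this list; without siACO1 replicate 3 or siSLC25A1 replicate 3, 1 rise was called. In siACLY 2 were called higher in each fit that left out 1 library, except those without siSLC25A1 replicate 2 or siACLY replicate 3, and 1 was called lower without siControl replicate 1 or 3 or siACLY replicate 1 or 2. In siSLC25A1 1 was called higher without siControl replicate 2 or siSLC25A1 replicate 2.

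Of 10 E proteins and other partners with a basic helix-loop-helix domain, 4 were tested, with 1 lower in siSLC25A1, 2 lower in siACLY, and 1 higher and 2 lower in siACO1 (medians 0.12, -0.027 and 0.080). TCF3, the main E protein here, fell from 420 ± 18.2 CPM to 292 ± 10.9 CPM in siACLY (log2 fold change -0.53, adjusted p = 4.49e-11) and to 301 ± 11.2 CPM in siACO1 (-0.48, adjusted p = 2.27e-10). In siSLC25A1 it stood at 380 ± 4.34 CPM (-0.15, adjusted p = 0.0115), a call lost without siControl replicate 1 (0.0912), siControl replicate 3 (0.0594) or siSLC25A1 replicate 3 (0.0511). TCF12 fell in siACLY (-0.20, adjusted p = 0.00135) and siACO1 (-0.16, adjusted p = 0.00894), the second of these calls being lost with library totals (adjusted p = 0.0766). HES1, a repressor best known as a Notch target, rose in siACO1 from 8.95 ± 0.186 to 17.8 ± 1.09 CPM (0.99, adjusted p = 5.13e-10). ID1 and its partner TCF3 were thus both called lower in each of the 3 knockdowns, with the limits given for ID1 in siACLY and TCF3 in siSLC25A1. Without siACO1 replicate 3 a rise of 1 gene of this list was called in siSLC25A1.

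**Figure D4:**
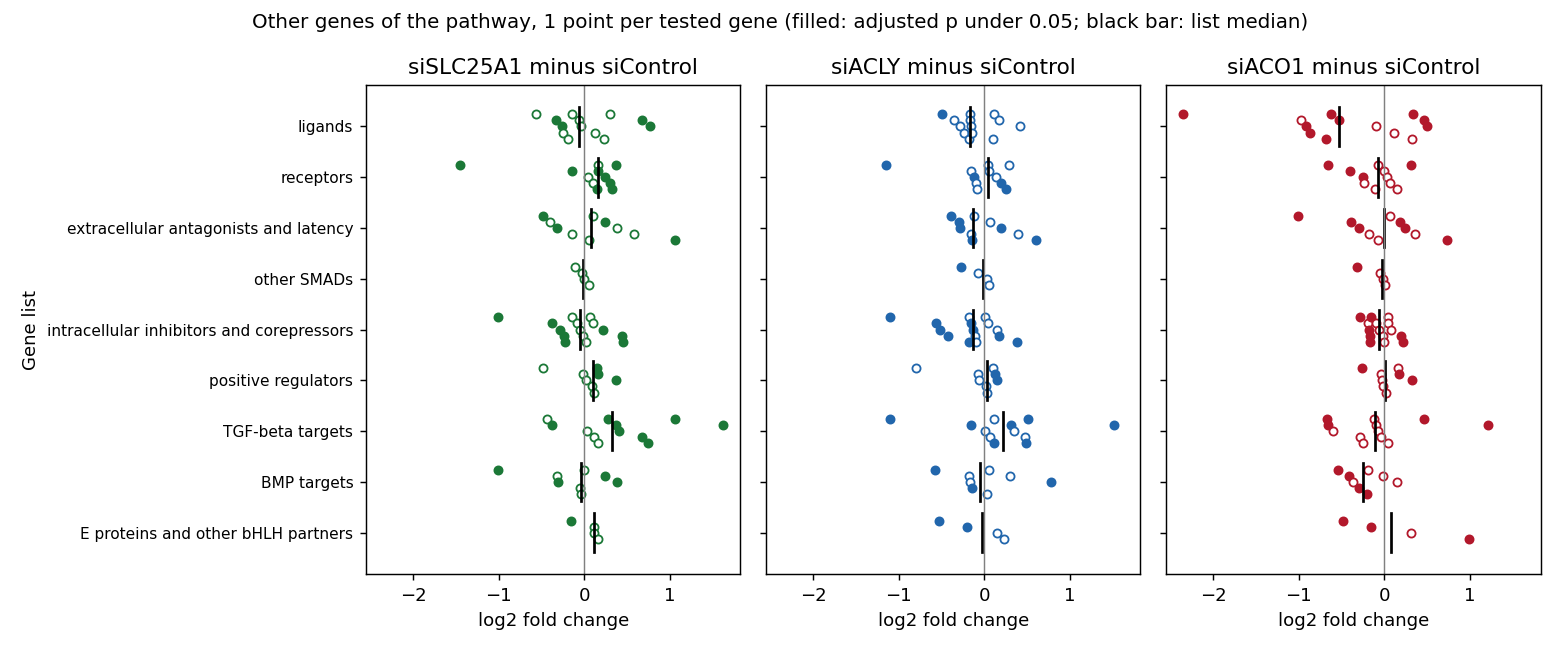
Log2 fold change against siControl of each tested gene in the 9 lists, 1 panel per knockdown; filled points have an adjusted p under 0.05 and black bars are list medians. TGF-beta targets have a median of 0.33 in siSLC25A1 and -0.11 in siACO1, and ligands one of -0.52 in siACO1, where BMP6 lies at -2.35.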

How the data were processed

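The authors deposited 1 table of whole-number read counts per gene (70116 Ensembl identifiers, 12 library columns), not normalized, per the file headers and values. Per the labels' protocols, poly(A) RNA was captured, fragmented and primed with random hexamers. CASAVA, FastQC, Trim Galore, STAR 2.7.0e and DESeq2, and the builds GRCh38 and GRCm39, are listed in the submitters' processing notes without roles; the counting tool, annotation and use of strand are not given in the sources used here.

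Symbols matched 62700 identifiers (89.4%). The test was edgeR 4.0.16 under R 4.3.3, with filterByExpr defaults (16197 genes), trimmed-mean-of-M-values (TMM) scaling and a robust quasi-likelihood fit over the 12 libraries, with group as the only term (8 residual degrees of freedom, common biological coefficient of variation 4.89%). Tests were two-sided, with Benjamini-Hochberg adjustment over all tested genes, and a call at an adjusted p under 0.05. Because scaling is relative, a change in total RNA per cell would not be seen. The script was tested on simulated data. Counting error and replicate spread set the precision; replicates correlated at 0.991 to 0.994.

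Places are from GENCODE 29 on GRCh38, which may not be the authors' annotation. A gene was called uncertain where 20% or more of its exon bases overlapped another gene or 20% or more of its 31-base stretches occurred elsewhere. Named genes were the members, the 3 targets, from each list and knockdown up to 3 called genes with the largest change (mean of 1 CPM or more in whichever group was higher), and for members with at least 5 CPM the 3 most similar genes (Pearson's r, prior count 2); not every gene this rule gave is described, and a few named outside it are marked. The values of 1 listed gene are not reported here. Members and lists were chosen with earlier results of these data known. The alternatives were library totals without scaling, size factors by median of ratios, DESeq2 1.42.0, no filter, at least 10 counts in every library, only the 2 groups compared, a replicate block, and leaving out each library; those for the lists and for similar genes were added after seeing the data.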

Additional observations from a re-analysis of the deposited data

How the results depend on the processing

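Over 19 alternatives, 26 of the 42 member results (7 genes in 6 comparisons) kept direction and call in every fit, among them all of SMAD6, ID2 and SKIL against siControl and ID1 in siSLC25A1 and siACO1. The number of members called in siACLY fell from 6 to 3 with library totals and ranged from 3 to 6 when single libraries were left out. Between siSLC25A1 and siACLY it was 1 instead of 2 with DESeq2, 3 with library totals and 1 to 2 when leaving out libraries; the cause was not tested. With library totals the sign turned for SMAD3 in siACO1 (0.042), SMAD6 between siSLC25A1 and siACLY (-0.0064) and SLC25A1 in siACLY (0.015), and the SMAD3 value was 0.00099 when 10 counts were required in all libraries. Leaving out single libraries moved log2 fold changes across 0 for SMAD3 in siACO1 (-0.052 to 0.032), SMAD6 between siSLC25A1 and siACLY (-0.013 to 0.088), and SMAD7 in siACLY (-0.18 to 0.17), in siACO1 (-0.023 to 0.40) and between siACLY and siACO1 (-0.41 to 0.092). It did so for BMP8A (-0.18 to 0.10), SMAD1 (-0.11 to 0.019) and MSX1 (-0.085 to 0.00093) in siSLC25A1, HGS (-0.018 to 0.060) and SMAD1 (-0.037 to 0.10) in siACLY, and LTBP2 in siACO1 (-0.21 to 0.034). None of these was called with all libraries and TMM. No pairing by replicate number was seen over all genes, where 18 correlations of same-numbered deviations ran from -0.034 to 0.067. Such correlations cannot show a batch shared at only some genes. With a replicate block the members called stayed at 3, 6 and 5 against siControl. The genes called were then 3270, 6038 and 6093, against 3173, 5944 and 6008 without the block. Depth limits SMAD7, with 26 to 66 counts in a library, and ID3 and ID4.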
